A study of Capra hircus with 9 samples.

Results

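The hedgehog pathway of the goat uterus is described here through 9 genes: the ligand IHH, its receptor PTCH1, the decoy receptor HHIP, the signal transducer SMO, the transcription factors GLI1, GLI2 and GLI3, and the stromal transcription factors NR2F2 and HAND2. The genes were chosen by name, with earlier results of these data known. Each matched 1 of the 25671 gene rows of the count table by its symbol. All 9 passed the filter on low counts, so that none is missing from the tests. The libraries were made from polyadenylated RNA of Liaoning Cashmere goats, a fibre breed of Capra hircus, at days 6, 16 and 19, with 3 libraries a day. The labels give the days as peri-implantation, name no event from which they are counted, and give no treatment, genotype, age or pregnancy state that differs between or is shared by the groups. Whether the 3 samples of each day are separate animals is not stated, and the p-values reflect only how these samples vary, part of which may be technical.

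Hedgehog ligands are secreted proteins. Without ligand, the membrane receptor patched (PTCH1) holds the transducer smoothened (SMO) inactive; ligand binding releases SMO, which acts through the primary cilium on the GLI transcription factors. GLI1, PTCH1 and HHIP are themselves standard transcriptional targets of the pathway, whereas GLI2 and GLI3 carry the signal, GLI3 mostly as a repressor. In the mouse uterus, Ihh is made by the epithelium under progesterone, its receptor is in the stroma beneath, and stromal Nr2f2 (COUP-TFII) lies downstream and is needed for implantation. Stromal Hand2 is also induced by progesterone in the mouse, where it restrains fibroblast growth factors that act on the epithelium.

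The labels conflict on the tissue. Uterus is given as the tissue, endometrial epithelium stands in the series title, and testis is named in the protocol for collection. The markers of epithelium, stromal fibroblasts and smooth muscle were all tested (20, 20 and 15 genes), and their summed levels were 1885 to 3603, 23248 to 38764 and 10362 to 47208 CPM over the libraries, CPM being counts scaled to a common library total. Of 12 testis markers analysed here, SYCP3, TNP1, ACRV1 and SPATA19 had 0 counts in all libraries and the summed level was 1 to 7 CPM. The samples are called uterine tissue here. Libraries held 8712751 to 11074693 counts. Day 19 replicate 1 stood apart: over tested genes, Spearman's rho of its log2 CPM was 0.894 and 0.897 with replicates 2 and 3 of that day, against 0.973 to 0.985 for the other pairs of libraries of 1 day. Ribosomal protein genes held 2.42% of its counts, against 6.61% and 5.64% in day 19 replicates 2 and 3, and mitochondrial genes 0.639%, against 1.54% and 1.34%. The mitochondrial share also differed between days, at 2.91% to 3.27% at day 6 and 1.94% to 2.11% at day 16. Its part in the results was not tested. Counts and calls below that moved without day 19 replicate 1 are given both ways.

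The ligand IHH and the feedback genes PTCH1, HHIP and GLI1 stood lower at day 16 than at day 6. IHH was at 5.74% of its day 6 level, GLI1 at 15.9%, PTCH1 at 25.9% and HHIP at 30.6%. SMO, GLI3, NR2F2 and HAND2 were not called at day 16 by edgeR. At day 19, IHH, PTCH1, HHIP and GLI1 were again lower than at day 6. GLI2 was also called lower and NR2F2 1.41-fold higher, but each call was lost on leaving out any library other than day 19 replicate 1. At day 19 against day 16 edgeR called none of the 9 genes with all libraries. GLI2 and GLI3 were called lower by edgeR without day 19 replicate 1, and by limma voom with sample quality weights on all libraries.

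**Figure D1:**
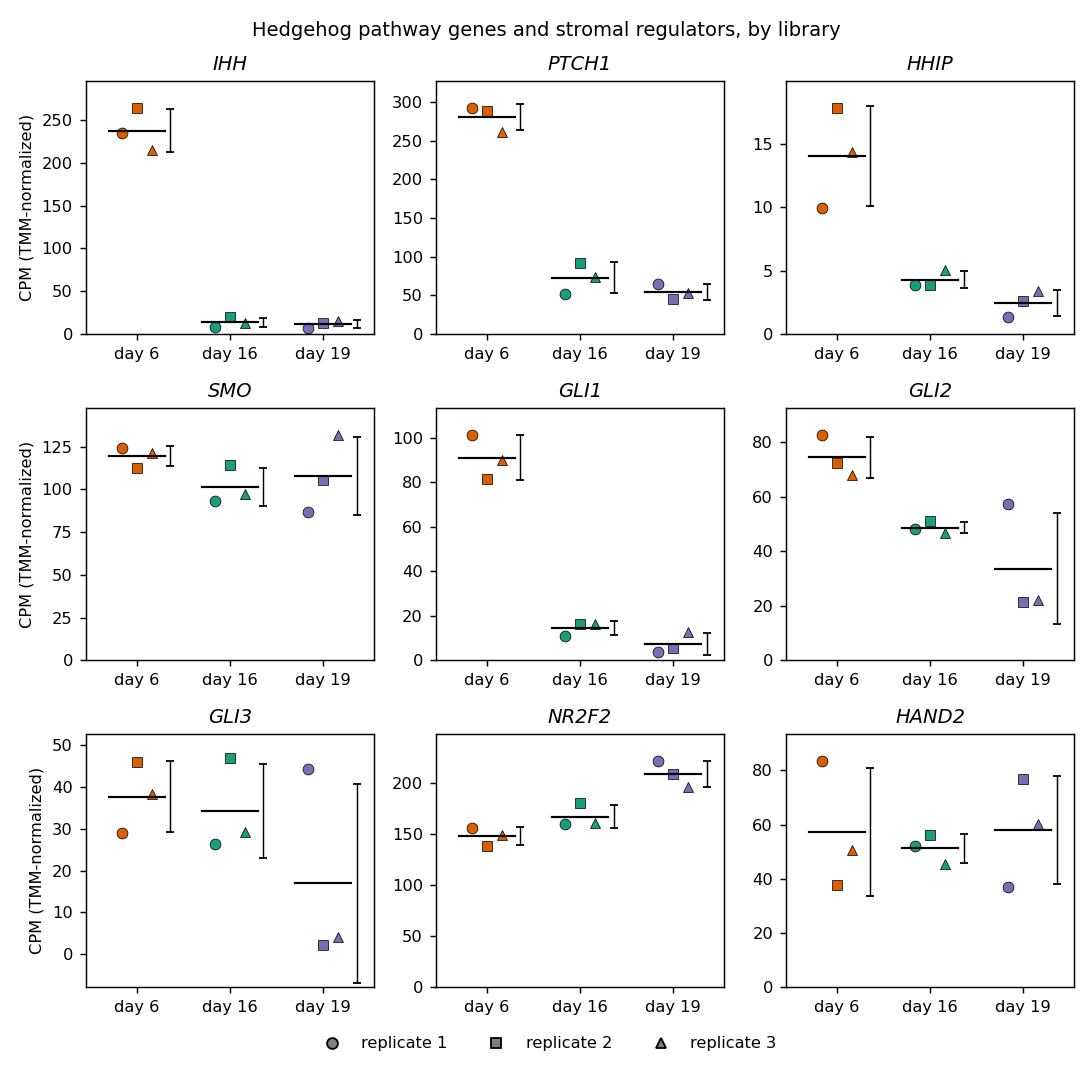
Normalized level in CPM (linear axes, a scale of its own for each gene) of the 9 genes at days 6, 16 and 19; points are libraries, bars the mean ± SD of 3 libraries, and the axis of GLI3 runs below 0 only to show its SD. IHH, PTCH1, HHIP and GLI1 are highest at day 6 in all 3 libraries, and GLI3 at day 19 holds 1 library at 44.3 CPM and a pair at 2.30 and 4.13 CPM.

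IHH, the only hedgehog ligand with more than a trace of counts, was at 235, 264 and 215 CPM at day 6, 8.74, 19.7 and 12.5 CPM at day 16, and 6.61, 12.7 and 15.3 CPM at day 19. Every day 6 library was far above every later one, and the libraries of days 16 and 19 overlapped. The means were 13.7 ± 5.57 CPM at day 16 against 238 ± 24.8 CPM at day 6 (SD, n = 3 each). That is 17.4-fold lower at day 16, a log2 fold change of -4.12 (SE 0.38, edgeR quasi-likelihood test with Benjamini-Hochberg adjustment over all 16098 genes tested, adjusted p = 0.000295). Day 19, at 11.5 ± 4.48 CPM, was 20.6-fold below day 6 (log2 fold change -4.37, SE 0.38, edgeR adjusted p = 0.000148). Between the later days the log2 fold change was -0.24 (day 19 over day 16, SE 0.35, edgeR adjusted p = 0.673), and the interval of ± 2 SE ran from -0.94 to 0.45. The day 16 and day 19 means rest on 395 and 340 counts summed over the libraries. SHH, the best known ligand of embryos, had 1 count in all 9 libraries together, and DHH, the ligand of Sertoli and Schwann cells, had 16, 17 and 4 counts at days 6, 16 and 19; neither was tested.

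Tissue RNA was pooled over cell types, so fewer epithelial cells and less IHH RNA per epithelial cell cannot be told apart from the IHH level alone. Of 20 epithelium markers, 4 (20%) were higher and 1 (5%) lower at day 16 than at day 6, where 5.12% of all genes tested were higher and 3.74% lower. Without day 19 replicate 1, 8 were higher and 5 lower, against 10.7% and 9.67% of all genes. Their median log2 fold change was 0.25, and their summed level was 2802 to 2873 CPM at day 16 against 2352 to 2833 CPM at day 6. The higher markers included CLDN4, PRSS8 and MAL2, and the lower one was the keratin KRT7; these are named after their values were seen. The part of these markers in the IHH result was not tested. The log2 level of IHH minus the mean log2 level of the epithelium markers was -3.30, -2.26 and -2.85 in the day 16 libraries against 1.62, 2.19 and 1.85 in the day 6 libraries. The difference of the means was -4.69 (two-sided exact permutation test, p = 0.1, the smallest that 3 against 3 libraries allow). At day 19 the same measure was -3.21, -3.23 and -2.50, a difference of -4.86 from day 6 (exact permutation p = 0.1). Relative to the epithelium markers, IHH was lower at both later days in every library.

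PTCH1, the receptor, was at 292, 288 and 261 CPM at day 6, 51.8, 92.3 and 73.7 CPM at day 16, and 65.1, 45.0 and 53.1 CPM at day 19. All day 6 libraries were above all later ones, and days 16 and 19 overlapped. PTCH1 was 3.86-fold lower at day 16 (72.6 ± 20.2 CPM, against 280 ± 17.1 CPM at day 6, log2 fold change -1.95, SE 0.24, edgeR adjusted p = 0.00109). At day 19 it was 5.15-fold lower than at day 6 (54.4 ± 10.1 CPM, log2 fold change -2.36, SE 0.24, edgeR adjusted p = 0.000302). The difference of day 19 from day 16 was -0.42 on the log2 scale (SE 0.23, edgeR adjusted p = 0.28).

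HHIP, a membrane protein that binds hedgehog ligands and keeps them from PTCH1, was at low levels, with 9.93, 17.8 and 14.3 CPM at day 6, 3.90, 3.87 and 5.05 CPM at day 16, and 1.36, 2.60 and 3.39 CPM at day 19. The 3 days formed 3 ranges that did not overlap, in falling order. It was 3.27-fold lower at day 16 than at day 6 (4.27 ± 0.672 against 14.0 ± 3.95 CPM, log2 fold change -1.71, SE 0.36, edgeR adjusted p = 0.018). Leaving out day 6 replicate 2, day 6 replicate 3, day 16 replicate 1 or day 16 replicate 2 ended the call (edgeR adjusted p 0.0718 to 0.0812). At day 19 HHIP was 5.72-fold below day 6 (2.45 ± 1.02 CPM, log2 fold change -2.52, SE 0.38, edgeR adjusted p = 0.00191), and the difference from day 16 was not called (log2 fold change -0.81, SE 0.38, edgeR adjusted p = 0.217).

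SMO, the transducer that PTCH1 restrains, was at 124, 113 and 121 CPM at day 6, 93.1, 114 and 97.5 CPM at day 16, and 86.6, 105 and 132 CPM at day 19. The ranges overlapped between all pairs of days. The log2 fold changes were -0.23 for day 16 over day 6 (interval of ± 2 SE -0.60 to 0.14, edgeR adjusted p = 0.572) and -0.14 for day 19 over day 6 (edgeR adjusted p = 0.592). The log2 level of PTCH1 minus that of SMO differed by -1.75 at day 16 from day 6 (exact permutation p = 0.1).

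GLI1, the activator whose own transcription follows the pathway, was at 101, 81.6 and 90.2 CPM at day 6, 10.8, 16.3 and 16.3 CPM at day 16, and 3.79, 5.49 and 12.8 CPM at day 19. Every later library was far below every day 6 library, and day 19 replicate 3 lay within the range of day 16. GLI1 was 6.28-fold lower at day 16 (14.5 ± 3.15 CPM, against 91.0 ± 9.93 CPM at day 6, log2 fold change -2.65, SE 0.40, edgeR adjusted p = 0.00344). At day 19 it stood at 8.08% of its day 6 level (7.36 ± 4.79 CPM, log2 fold change -3.63, SE 0.42, edgeR adjusted p = 0.000565). Without day 19 replicate 3 that log2 fold change was -4.28. Day 19 was not called against day 16 (log2 fold change -0.98, SE 0.40, edgeR adjusted p = 0.173).

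GLI2, the main activator that relays the signal before GLI1 is made, was at 82.8, 72.5 and 68.1 CPM at day 6, 48.1, 51.0 and 46.9 CPM at day 16, and 57.2, 21.5 and 22.2 CPM at day 19. Every day 16 library was below every day 6 library; at day 19 replicate 1 was above day 16 and the other libraries were below it. With all libraries the day 16 difference from day 6 was not called (48.7 ± 2.13 against 74.4 ± 7.56 CPM, log2 fold change -0.61, SE 0.34, edgeR adjusted p = 0.368). It was called with almost the same change (log2 fold change -0.62, edgeR adjusted p = 0.00479) without day 19 replicate 1, which enters this comparison through the shared spread, the filter and the scaling. At day 19 the level was 33.6 ± 20.4 CPM, lower than at day 6 by a log2 fold change of -1.15 (SE 0.35, edgeR adjusted p = 0.0405). That change was -1.76 without day 19 replicate 1 (edgeR adjusted p = 1.74e-05), and without any single one of the other 8 libraries the call was lost, with adjusted p of 0.0631 to 0.119.

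GLI3, which is mostly a repressor in the absence of ligand, was at 28.9, 46.0 and 38.2 CPM at day 6, 26.4, 47.0 and 29.1 CPM at day 16, and 44.3, 2.30 and 4.13 CPM at day 19. Days 6 and 16 overlapped throughout, and the day 19 libraries differed 19.3-fold among themselves: 456 counts in replicate 1 against 23 and 39 in replicates 2 and 3. The gap of replicate 1 above the mean of the others was 3.76 on the log2 scale, and 99.6% of tested genes had a lower gap; the median absolute gap over genes was 0.71. With all libraries edgeR called no comparison of GLI3. The log2 fold change was -0.14 for day 16 over day 6 (edgeR adjusted p = 0.959), -1.01 for day 19 over day 16 (edgeR adjusted p = 0.469) and -1.15 for day 19 over day 6 (edgeR adjusted p = 0.349). Without day 19 replicate 1 the log2 fold change of day 19 was -3.54 over day 6 (edgeR adjusted p = 9.38e-05) and -3.40 over day 16 (edgeR adjusted p = 0.000179). On all libraries, limma voom with sample quality weights gave GLI3 a log2 fold change of -3.49 for day 19 over day 6 (adjusted p = 0.000172) and -3.28 for day 19 over day 16 (adjusted p = 0.000652). The calls of GLI3 at day 19 thus depended on both the library and the method. Day 19 replicate 1 also had less ribosomal protein and mitochondrial RNA, as given above, and the part of this in the result was not tested.

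NR2F2, the nuclear receptor COUP-TFII of the stroma, was at 156, 138 and 149 CPM at day 6, 160, 180 and 160 CPM at day 16, and 221, 209 and 196 CPM at day 19. The 3 ranges did not overlap and stood in rising order. At day 19 it was 1.41-fold higher than at day 6 (209 ± 12.5 against 148 ± 8.7 CPM, log2 fold change 0.50, SE 0.15, edgeR adjusted p = 0.0399). The edgeR adjusted p was 0.00771 without day 19 replicate 1 (log2 fold change 0.47). Without any single one of the other 8 libraries the call was lost, with adjusted p of 0.0611 to 0.142. Day 16, at 167 ± 11.4 CPM, was not called against day 6 (log2 fold change 0.17, edgeR adjusted p = 0.613), nor day 19 against day 16 (log2 fold change 0.33, edgeR adjusted p = 0.214). Of the 9 genes NR2F2 was the only one called higher than at day 6.

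HAND2, a basic helix-loop-helix factor of the stroma, was at 83.4, 37.6 and 50.7 CPM at day 6, 51.9, 56.0 and 45.5 CPM at day 16, and 37.1, 76.7 and 60.2 CPM at day 19. All ranges overlapped, and the highest library was 2.22 times the lowest at day 6 and 2.07 times at day 19. None of its comparisons was called; the log2 fold change of day 16 over day 6 was -0.16 with an interval of ± 2 SE from -0.82 to 0.49 (edgeR adjusted p = 0.867), and that of day 19 over day 6 was 0.02 (edgeR adjusted p = 0.971).

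**Figure D2:**
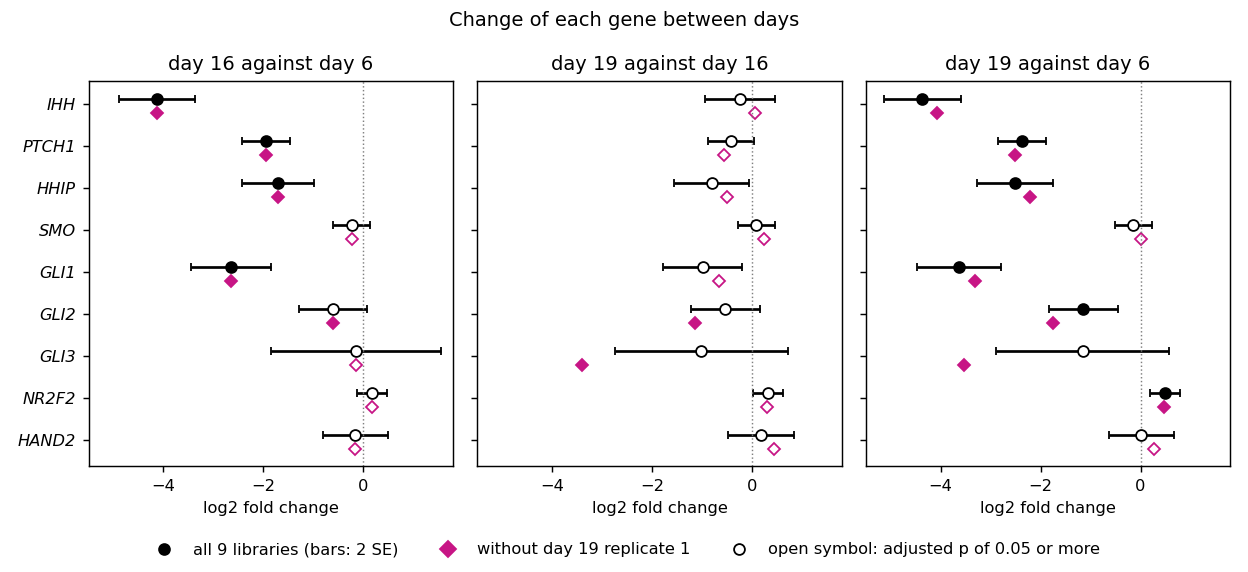
Log2 fold change of each gene for the 3 pairs of days, later day over earlier day, with circles and bars of ± 2 SE from the edgeR fit to all 9 libraries and diamonds from the fit without day 19 replicate 1. Among the filled symbols, which mark called genes (edgeR adjusted p under 0.05), IHH has the lowest values against day 6, at -4.12 and -4.37, and the diamonds of GLI3 lie at -3.54 for day 19 over day 6 and -3.40 for day 19 over day 16.

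By count, 4 of the 9 genes were lower and 0 higher at day 16 than at day 6, where 3.74% of all genes tested were lower and 5.12% higher. Without day 19 replicate 1, 5 were lower, against 9.67% of all genes. At day 19 against day 6, 5 were lower and 1 higher, against 10.2% lower and 12.7% higher over all genes. These were 6 and 1 without day 19 replicate 1, against 27% and 27.2%. At day 19 against day 16 none was called by edgeR, where 0.683% of all genes were lower and 0.516% higher. GLI1 alone had an unadjusted edgeR p under 0.05 (0.0337). DESeq2 called 0 of the 9, against 10.9% of all genes, and limma voom with sample quality weights called 2, against 45.7%. By edgeR without day 19 replicate 1, 2 genes were lower, against 23.1% of all genes, a share close to the background. An F test among the 3 days called IHH, PTCH1, HHIP and GLI1, 4 of 9 against 19.6% of all genes, and 7 of 9 without that library, against 59.1%. The median log2 fold change of the 9 genes was -0.61 for day 16 over day 6 and -1.15 for day 19 over day 6, where the medians of all genes were 0.00 and 0.02. Both comparisons share the day 6 libraries. The 9 genes and all gene lists used here were chosen with earlier results of these data known. Their counts beside the shares of all genes are therefore descriptions and no test of a set.

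The stromal genes of the set were also read against stromal fibroblast markers, whose summed level was 23248 to 28494 CPM at day 16 and 24299 to 35026 CPM at day 19, against 37677 to 38764 CPM at day 6. Of these 20 markers, 0 were called higher and 1 (5%) lower at day 16 than at day 6, against 5.12% and 3.74% of all genes. Without day 19 replicate 1 these were 0 and 3 (15%), against 10.7% and 9.67%. At day 19, 2 (10%) were higher and 1 (5%) lower than at day 6, against 12.7% and 10.2%. Without day 19 replicate 1 there were 4 (20%) and 6 (30%), against 27.2% and 27%. The log2 level of PTCH1 minus their mean was -2.85, -1.97 and -2.11 at day 16 against -0.46, -0.40 and -0.61 at day 6, a difference of -1.82. For GLI1 the values were -5.09, -4.46 and -4.27 at day 16 against -1.98, -2.22 and -2.14 at day 6, a difference of -2.49. NR2F2 on this scale was -0.84, -0.73 and -1.03 at day 19 against -1.37, -1.46 and -1.41 at day 6, a difference of 0.55. In each of these the days did not overlap (exact permutation p = 0.1, the smallest possible), and PTCH1 and GLI1 were likewise lower at day 16 relative to the epithelium and smooth muscle markers (differences of -2.50 and -2.13 for PTCH1, -3.17 and -2.80 for GLI1). NR2F2 at day 19 overlapped day 6 relative to the epithelium markers (difference 0.05, exact permutation p = 0.9) and to the smooth muscle markers (0.03, exact permutation p = 1). Its higher level was thus seen against stromal fibroblast markers only, of the 3 marker lists used. Relative to the stromal fibroblast markers, SMO, GLI3 and HAND2 overlapped day 6 at both later days. Their differences were -0.07, 0.004 and 0.08 at day 16 and -0.12, -2.20 and 0.08 at day 19. HHIP and GLI2 did not overlap day 6 at either later day (differences of -1.47 and -0.44 at day 16). Smooth muscle markers varied within day 6, at 10362 CPM in replicate 1 against 36856 and 29572 CPM in replicates 2 and 3. Of the day 6 libraries, replicate 1 was the highest for PTCH1, SMO, GLI1, GLI2, NR2F2 and HAND2. It was the lowest for HHIP and GLI3 and lay between the others for IHH. The part of the smooth muscle markers in those values was not tested. Of 17 proliferation genes, 5 were lower at day 16 than at day 6 (29.4%, against 3.74% of all genes) and 7 without day 19 replicate 1 (41.2%, against 9.67%), and their part was not tested either.

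**Figure D3:**
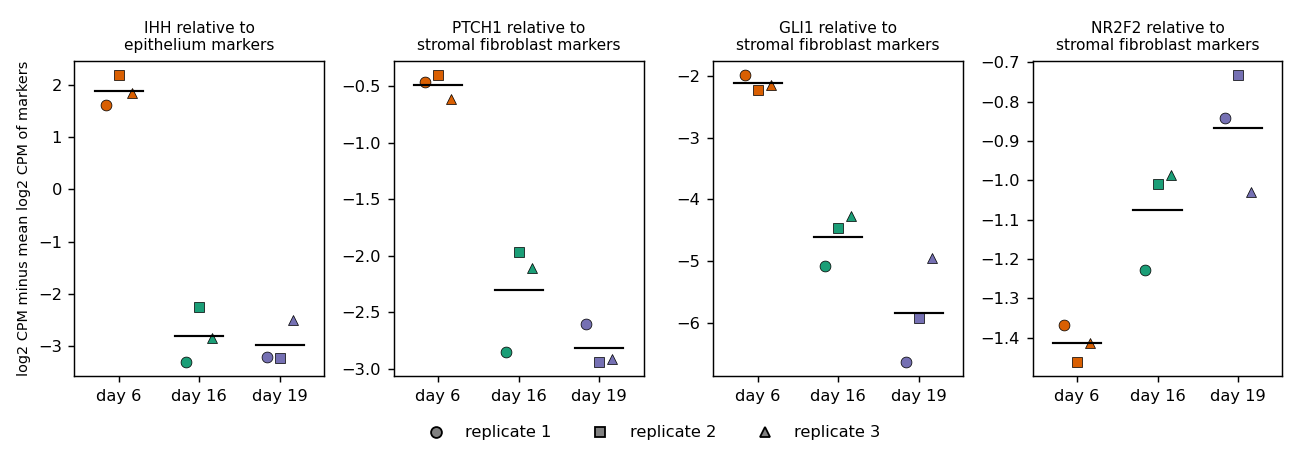
Log2 level of IHH relative to the epithelium markers, and of PTCH1, GLI1 and NR2F2 relative to the stromal fibroblast markers, per library at days 6, 16 and 19 (member log2 CPM minus the mean log2 CPM of 20 markers, symbols are replicates, lines the means of a day, and each panel has its own scale). IHH lies between 1.62 and 2.19 at day 6 and at or below -2.26 in all later libraries.

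The genes whose course over the 9 libraries was most like that of IHH were sought among 11218 tested genes by the root mean square difference of log2 CPM, each gene centred on its own mean. The 5 nearest were PSAT1, an enzyme of serine synthesis (0.47), SCNN1A, the alpha subunit of the epithelial sodium channel (0.47), the gap junction gene GJB1 (0.52), the nucleoside transporter SLC28A3 (0.56) and NNAT (0.56). PSAT1 was at 464 ± 18.3 CPM at day 6, 19.3 ± 5.77 CPM at day 16 and 15.4 ± 6.20 CPM at day 19, and SCNN1A at 98.4 ± 41.3, 5.01 ± 2.26 and 2.94 ± 0.749 CPM. GLI1 was the member nearest to IHH, at rank 11 (0.69), with PTCH1 at rank 73 and HHIP at rank 93. The other members stood at ranks 899 (GLI2) to 8184 (NR2F2). Nearest to PTCH1 were TXNRD1, a thioredoxin reductase (0.22), DACT1, which binds dishevelled in Wnt signalling (0.23), IQGAP2 (0.26), C16H1orf95 (0.27) and MOCOS (0.29). The member nearest to PTCH1 was HHIP, at rank 154 (0.53), with GLI2 at rank 416 and GLI1 at rank 685. IHH stood only at rank 4832 (1.08) in likeness to PTCH1. These values describe likeness over 9 libraries in which day 6 differs from the later days, a course that many genes share.

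Some other hedgehog receptors and co-receptors were lower after day 6. Of 7 tested, 3 were lower and 0 higher at day 16 than at day 6, against 3.74% and 5.12% of all genes, with the same counts without day 19 replicate 1. At day 19, 4 were lower than at day 6, against 10.2% of all genes, and 6 without day 19 replicate 1, against 27%; the median log2 fold changes were -1.28 and -2.05. CDON, a co-receptor that helps ligand bind PTCH1, was 4.33-fold lower at day 16 (47.8 ± 10.4 against 207 ± 34.0 CPM, log2 fold change -2.11, SE 0.41, edgeR adjusted p = 0.0123); the adjusted p was 0.0638 without day 16 replicate 1 and 0.052 without day 16 replicate 3. GPC3, a glypican that competes with patched for ligand, was lower at day 16 (log2 fold change -1.28, edgeR adjusted p = 0.0256). Leaving out day 6 replicate 1, day 6 replicate 3, day 16 replicate 2 or day 16 replicate 3 ended the call (edgeR adjusted p 0.0945 to 0.106). LRP2, an endocytic receptor of hedgehog ligands, was at 36.3 ± 21.8 CPM at day 19 against 346 ± 30.6 CPM at day 6 (log2 fold change -3.25, SE 0.60, edgeR adjusted p = 0.00526). BOC, the co-receptor related to CDON, was not called at day 16 (log2 fold change 0.44, edgeR adjusted p = 0.663) or day 19 (1.18, edgeR adjusted p = 0.0764). With all libraries the glypicans GPC4 and GPC6 were not called at either day. Without day 19 replicate 1 they were lower at day 19 than at day 6 (log2 fold changes -1.14 and -4.23, edgeR adjusted p = 0.0227 and 0.000153). GAS1 is not analysed here.

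Of the genes that make and release the ligand, such as the acyltransferase HHAT and the transporter DISP1, 6 were tested. None was called by edgeR in any pair of days with all libraries. Without day 19 replicate 1, 3 were lower at day 19 than at day 6, against 27% of all genes. In that fit 2 were lower at day 19 than at day 16, against 23.1%. Of 31 tested genes of signal transduction, 1 was higher and 2 lower at day 16 (9.68%, close to the 8.86% of all genes called in either direction), with a median log2 fold change of 0.05. These were 4 and 5 without day 19 replicate 1 (29%, against 20.4%). SUFU, which holds GLI proteins in the cytoplasm, was lower at day 16 (32.0 ± 2.17 against 60.1 ± 9.10 CPM, log2 fold change -0.91, SE 0.21, edgeR adjusted p = 0.027), a call lost without any single one of the 6 libraries of these days (adjusted p 0.0695 to 0.114). At day 19 SUFU was 2.72-fold below day 6 (22.1 ± 5.39 CPM, log2 fold change -1.45, edgeR adjusted p = 0.00177). The ubiquitin ligase gene SMURF1 was higher at day 16 (75.9 ± 6.31 against 28.9 ± 0.438 CPM, log2 fold change 1.39, edgeR adjusted p = 0.0102, 0.0542 without day 6 replicate 3). ARRB2, which encodes a beta-arrestin, was lower (log2 fold change -0.82, edgeR adjusted p = 0.019), and its adjusted p was 0.0677 to 0.0954 without any 1 of the 3 day 6 libraries or day 16 replicate 1 or 2.

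At day 19, 1 signal transduction gene was higher and 7 lower than at day 6 (25.8%, close to the 22.9% of all genes), and 2 and 13 without day 19 replicate 1 (48.4%, against 54.2%). GPR161, a ciliary receptor that opposes the pathway, was at 5.19 ± 5.60 CPM at day 19 against 27.7 ± 1.21 CPM at day 6 (log2 fold change -2.41, edgeR adjusted p = 0.0187, 0.0502 without day 6 replicate 1, 0.0561 without day 6 replicate 3). Its log2 fold change was -3.80 without day 19 replicate 1. The kinase gene ULK3 was 1.94-fold lower (edgeR adjusted p = 0.0111). KIF7, a ciliary kinesin, was lower at day 19 than at day 6 (25.7 ± 8.56 against 50.7 ± 9.01 CPM, log2 fold change -0.98, edgeR adjusted p = 0.023) and than at day 16 (log2 fold change -1.30, edgeR adjusted p = 0.0492). The first of these calls ended on leaving out day 6 replicate 1, day 6 replicate 3, day 19 replicate 2 or day 19 replicate 3 (edgeR adjusted p 0.0602 to 0.0873). The second ended on leaving out any 1 of the 8 libraries other than day 19 replicate 1 (edgeR adjusted p 0.0791 to 0.187). CSNK1D, a kinase gene, was higher (log2 fold change 0.54, edgeR adjusted p = 0.0423), a call lost without any 1 library other than day 19 replicate 1 (adjusted p 0.0631 to 0.137). Of 43 tested genes of the primary cilium, none was called at day 16 by edgeR with all libraries, against 8.86% of all genes. Without day 19 replicate 1 there were 3 (6.98%, against 20.4%). At day 19, with all libraries, 3 were higher and 7 lower than at day 6. That is 23.3%, a share near the 22.9% of all genes, and so no result about cilium genes as a group. With day 19 replicate 1 left out there were 12 higher and 12 lower (55.8%, against 54.2%). DYNC2H1, the motor of retrograde transport in the cilium, was lower at day 19 (10.1 ± 4.30 against 27.7 ± 1.71 CPM, log2 fold change -1.45, edgeR adjusted p = 0.009). Also lower were BBS7 of the BBSome cargo complex (log2 fold change -1.47, edgeR adjusted p = 0.0115), the transition zone gene RPGRIP1L (log2 fold change -1.01, edgeR adjusted p = 0.015) and KIF3A, a motor of anterograde transport (log2 fold change -0.84, edgeR adjusted p = 0.0254). The call of RPGRIP1L ended without day 6 replicate 1, day 19 replicate 2 or day 19 replicate 3 (edgeR adjusted p 0.0517 to 0.0578), and that of KIF3A without day 6 replicate 2, day 6 replicate 3, day 19 replicate 2 or day 19 replicate 3 (0.0671 to 0.108). Higher were BBS5, another BBSome gene (log2 fold change 1.32), and the intraflagellar transport genes IFT20 (0.88) and IFT52 (0.55), with edgeR adjusted p of 0.0183, 0.0254 and 0.0487. BBS5 lost its call without day 6 replicate 1, day 6 replicate 2 or day 19 replicate 2 (0.0636 to 0.0708), IFT20 without any 1 of the day 6 libraries or day 19 replicate 2 or 3 (0.0604 to 0.0903), and IFT52 without any 1 library other than day 19 replicate 1 (0.0751 to 0.154).

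Genes listed as hedgehog targets in other tissues did not move in 1 direction. Of 24 tested, 2 were higher and 3 lower at day 16 (20.8%, against 8.86% of all genes), with a median log2 fold change of 0.01, and 3 were higher and 5 lower at day 19 than at day 6 (33.3%, against 22.9%). These were 3 and 5 at day 16 without day 19 replicate 1 (33.3%, against 20.4%) and 4 and 10 at day 19 (58.3%, against 54.2%). FOXL1, a forkhead factor of fibroblasts beside epithelia, was 10.1-fold lower at day 16 (0.601 ± 0.197 against 6.25 ± 1.36 CPM, log2 fold change -3.34, SE 0.40, edgeR adjusted p = 0.000948), on 18 counts at day 16 against 192 at day 6. WNT2B, a Wnt ligand, was 3.80-fold lower (8.98 ± 0.760 against 34.1 ± 6.47 CPM, log2 fold change -1.93, SE 0.22, edgeR adjusted p = 0.000747). The odd-skipped factor OSR1 was 3.60-fold lower (19.7 ± 6.11 against 70.9 ± 32.8 CPM, log2 fold change -1.85, edgeR adjusted p = 0.0112). The chemokine CXCL14 was higher, at 426 ± 162 CPM at day 16 against 4.21 ± 1.47 CPM at day 6 (log2 fold change 6.65, SE 0.40, edgeR adjusted p = 9.13e-05). IGFBP3, an insulin-like growth factor binding protein, was higher at 370.5 ± 49.9 against 116 ± 26.9 CPM (log2 fold change 1.68, edgeR adjusted p = 0.00213). At day 19 IGFBP6 was also higher than at day 6 (306 ± 62.3 against 99.9 ± 7.16 CPM, log2 fold change 1.62, edgeR adjusted p = 0.00105), and SFRP1, which binds Wnt ligands, was lower (log2 fold change -1.21, edgeR adjusted p = 0.0218, 0.0729 without day 6 replicate 1, 0.0564 without day 6 replicate 3). IGFBP6 at day 19 against day 16 was called (log2 fold change 1.11, edgeR adjusted p = 0.0468), a call lost without any 1 library other than day 19 replicate 1 (0.0797 to 0.191).

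**Figure D4:**
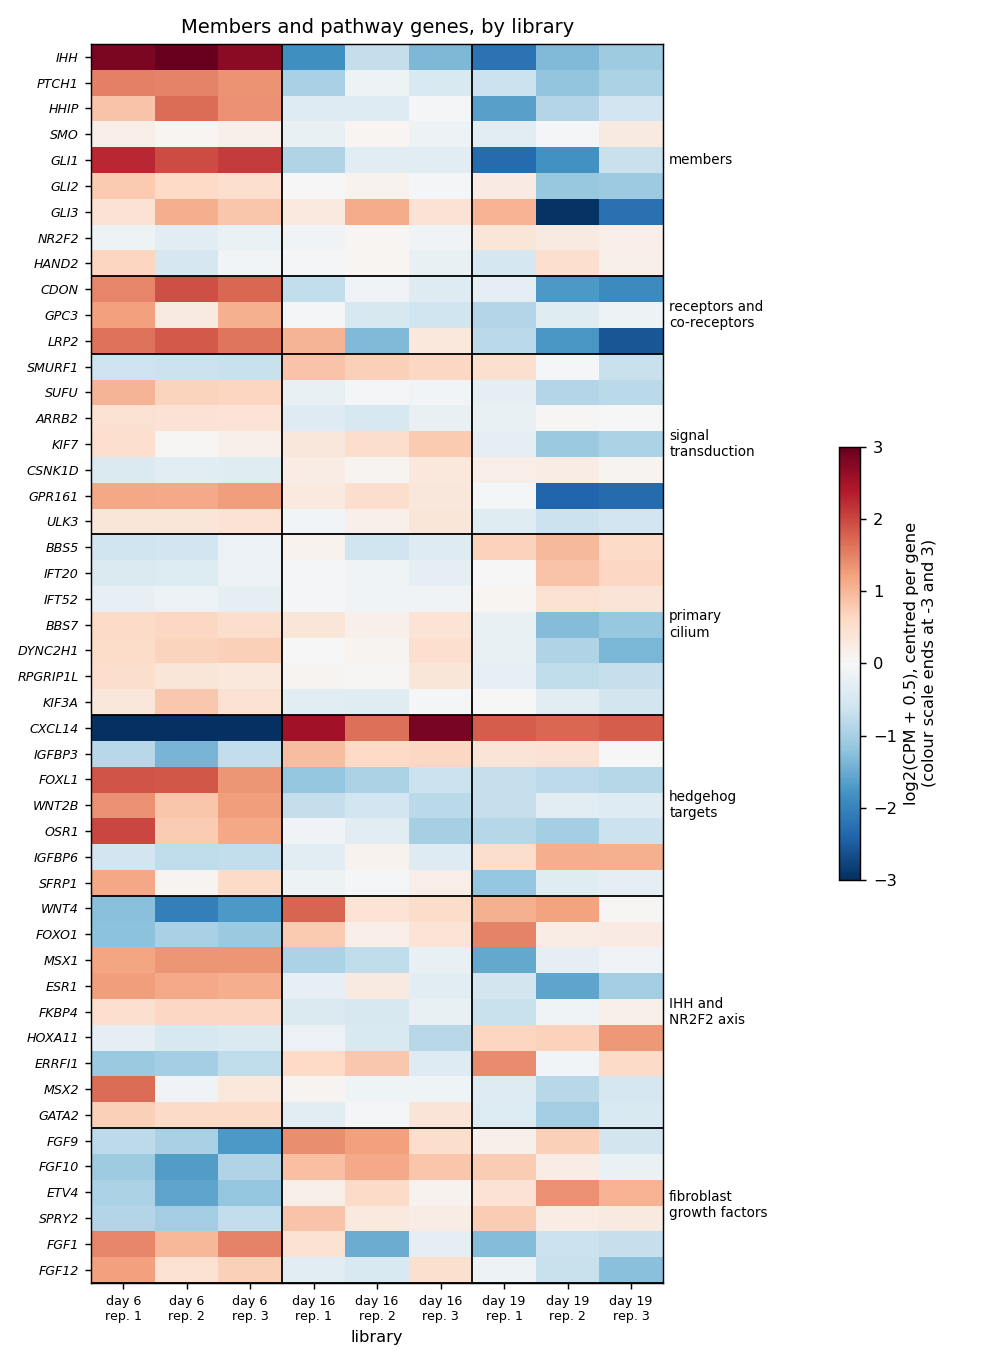
Log2(CPM + 0.5) per library, centred on each gene's mean, with the colours ending at -3 and 3, for the 9 genes and for pathway list genes chosen because they were called; columns are libraries by day in the order 6, 16 and 19. The day 6 columns of IHH, PTCH1, GLI1, CDON and FOXL1 stand above the later ones, and those of CXCL14 and WNT4 stand below them.

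In the mouse uterus the progesterone receptor acts upstream of Ihh, and BMP2 and WNT4 act downstream of Nr2f2 in the stroma. Of 24 tested genes of this axis, 2 were higher and 3 lower at day 16 (20.8%, against 8.86% of all genes), and 5 were higher and 6 lower at day 19 than at day 6 (45.8%, against 22.9%). Leaving out day 19 replicate 1 gave 5 higher and 4 lower at day 16 (37.5%, against 20.4%) and 5 higher and 14 lower at day 19 (79.2%, against 54.2%). PGR, the progesterone receptor, was at 26.0 ± 10.9 CPM at day 16 against 34.2 ± 3.57 CPM at day 6 and was not called (log2 fold change -0.40, edgeR adjusted p = 0.595). ESR1, the oestrogen receptor, was at 318 ± 73.8 CPM at day 16 and 167 ± 58.5 CPM at day 19, against 752 ± 47.4 CPM at day 6; the log2 fold changes from day 6 were -1.24 (edgeR adjusted p = 0.0243) and -2.17 (edgeR adjusted p = 0.0011). The day 16 call of ESR1 was lost without any 1 day 6 library or day 16 replicate 1 or 3 (adjusted p 0.0729 to 0.105). WNT4 was higher at day 16 (52.8 ± 29.4 against 7.86 ± 2.35 CPM, log2 fold change 2.74, SE 0.46, edgeR adjusted p = 0.00566) and at day 19 (46.6 ± 17.9 CPM, log2 fold change 2.56, edgeR adjusted p = 0.00446). BMP2 was at 5.47 ± 1.35 CPM at day 16 and 3.46 ± 0.249 CPM at day 19, against 4.34 ± 1.46 CPM at day 6, and was not called at day 16 (log2 fold change 0.33, edgeR adjusted p = 0.695). WNT4 stood higher on the days on which IHH stood lower.

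FOXO1, a forkhead factor of decidualizing stroma and of epithelium in mouse and human, was higher at day 16 (227 ± 49.3 against 75.4 ± 6.41 CPM, log2 fold change 1.59, edgeR adjusted p = 0.0195), a call lost without any 1 day 6 library or day 16 replicate 1 (adjusted p 0.0662 to 0.0863), and at day 19 (log2 fold change 1.89, edgeR adjusted p = 0.00521). The homeobox gene MSX1, needed for implantation in the mouse, was lower at day 16 (46.7 ± 12.9 against 175 ± 10.1 CPM, log2 fold change -1.90, edgeR adjusted p = 0.00977, 0.0515 without day 16 replicate 1, 0.0503 without day 16 replicate 2). FKBP4, a co-chaperone of the progesterone receptor, was lower at day 16 (log2 fold change -0.96, edgeR adjusted p = 0.0301, 0.062 to 0.127 without any single one of the day 6 and day 16 libraries). HOXA11, a homeobox factor of uterine stroma, was at 509 ± 137 CPM at day 19, against 195 ± 42.8 CPM at day 16 and 204 ± 15.7 CPM at day 6. It was called against day 6 (log2 fold change 1.31, edgeR adjusted p = 0.00547) and against day 16 (log2 fold change 1.39, edgeR adjusted p = 0.0451, 0.0791 to 0.175 without any 1 library other than day 19 replicate 1). ERRFI1, an inhibitor of epidermal growth factor receptor signalling, was higher at day 19 than at day 6 (228 ± 119 against 69.0 ± 9.33 CPM, log2 fold change 1.73, edgeR adjusted p = 0.0149, 0.0626 without day 6 replicate 1, 0.0573 without day 6 replicate 2). MSX2, the relative of MSX1, was lower at day 19 than at day 6 (log2 fold change -1.53, edgeR adjusted p = 0.0421). Its call ended without any 1 library other than day 6 replicate 2 and day 19 replicate 1 (edgeR adjusted p 0.0575 to 0.157), and the log2 fold change was -0.78 without day 6 replicate 1. GATA2, a factor that acts with the progesterone receptor in the mouse uterus, was lower at day 19 than at day 6 (3.67 ± 0.929 against 9.29 ± 0.559 CPM, log2 fold change -1.34, edgeR adjusted p = 0.0129).

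Of 17 tested fibroblast growth factors, their receptors, genes of their signalling and IL15, a list drawn from the role of Hand2 in the mouse, 4 were higher and 0 lower at day 16 (against 5.12% and 3.74% of all genes), with a median log2 fold change of 0.88. Without day 19 replicate 1, 7 were higher and 1 lower (against 10.7% and 9.67%). HAND2 itself was not called. FGF9 was at 14.7 ± 4.41 CPM at day 16 against 2.79 ± 1.02 CPM at day 6 (log2 fold change 2.39, SE 0.44, edgeR adjusted p = 0.00935), and FGF10 at 32.7 ± 3.85 against 7.04 ± 1.98 CPM (log2 fold change 2.21, SE 0.31, edgeR adjusted p = 0.00225). SPRY2, a feedback inhibitor induced by this signal, was higher at 50.3 ± 12.9 against 19.1 ± 2.18 CPM (log2 fold change 1.39, edgeR adjusted p = 0.00678). ETV4, a transcription factor induced by it, was higher at 3.59 ± 0.744 against 0.933 ± 0.297 CPM (log2 fold change 1.92, edgeR adjusted p = 0.019, 0.0504 to 0.0794 on leaving out day 6 replicate 2, day 6 replicate 3, day 16 replicate 1 or day 16 replicate 2). FGF2 and FGF18 were low, at 3.18 ± 1.35 and 1.42 ± 0.766 CPM at day 16 against 1.71 ± 0.367 and 0.320 ± 0.343 CPM at day 6, and were not called (log2 fold changes 0.88 and 2.09, edgeR adjusted p = 0.609 and 0.167). At day 19, 4 of the 17 were higher and 2 lower than at day 6 (against 12.7% and 10.2% of all genes), and 5 and 4 without day 19 replicate 1 (against 27.2% and 27%). The higher ones were ETV4, FGF10, SPRY2 and FGF9, of which FGF9 lost its call without day 19 replicate 2 (edgeR adjusted p = 0.139) or without any 1 day 6 library or day 16 replicate 1 or 2 (0.0573 to 0.131). The lower ones were FGF1 (8.81 ± 2.18 against 41.7 ± 7.73 CPM, log2 fold change -2.24, edgeR adjusted p = 0.00744) and FGF12 (log2 fold change -1.61, edgeR adjusted p = 0.0278, 0.0678 to 0.0993 on leaving out day 6 replicate 1, day 6 replicate 3, day 19 replicate 2 or day 19 replicate 3). The pathway lists other than that of ligand making and release held 7, 31, 43, 24, 24 and 17 tested genes, in the order described. Over them, 20 genes were called at day 16 against day 6. These were 12 without day 6 replicate 3 and 40 without day 19 replicate 1. Of all genes tested, 8.86%, 4.05% and 20.4% were called in these fits. At day 19 against day 6, 47 genes of these lists were called. They were 29 without day 6 replicate 1, 30 without day 6 replicate 3 and 87 without day 19 replicate 1. The shares of all genes were 22.9%, 13.5%, 11.8% and 54.2%. In each of these fits the list count moved from that with all libraries in the same direction as the share of all genes.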

How the data were processed

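Whole-number read counts per gene, not normalized, were deposited by the authors in 1 table with a column for each library. RNA was isolated with Trizol, poly(A) RNA was selected on Dynabeads, fragmented with RNase III and turned into libraries with an Ion Total RNA-seq kit, per the labels' protocols. Sequencing was on an Ion Proton, per the series design text. How reads were aligned and counted, on which build and annotation and with or without strand, is not given in the sources used here, so genes that overlap or resemble others are uncertain. The counts of 4121 of 25671 rows were 0 in all libraries. Symbols came from the table; 464 of 9672 rows named by a locus identifier took one by identifier from a RefSeq table (assembly ARS1.2).

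Counts were scaled by TMM, filtered with filterByExpr to 16098 genes (common biological coefficient of variation 0.318) and tested with edgeR 4.0.16 (R 4.3.3; robust quasi-likelihood, day as the only term, all 9 libraries). Genes with a p under 0.05 after Benjamini-Hochberg adjustment across the 16098 genes were called. The steps were tested on simulated data. CPM are counts scaled to a common library total with TMM, given as mean ± SD of 3 libraries. SE is the absolute log2 fold change divided by the square root of F. Log2 CPM carry a prior count of 2. All libraries differed by more than sampling noise (lowest chi-square per degree of freedom 9.86).

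The 9 genes and the lists were chosen with earlier results of these data known. Named besides them are fixed pathway genes and, per list, up to 4 called genes a direction and comparison with the largest change and average log2 CPM of at least 0, and the 5 genes most like IHH and PTCH1 each, with average log2 CPM of at least 2. Of the genes this rule names, 1 is not reported here. BOC, GPC4, GPC6, HHAT, DISP1 and the epithelium markers named fall outside that rule and were chosen after their values were seen. Alternatives were DESeq2 1.42.0, limma 3.58.1 voom with sample quality weights, other scalings (RLE, upper quartile) and filters (none, or at least 1 CPM in at least 6 libraries), no robust estimation, only the libraries of the 2 days compared, a replicate block, and each library left out.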

Additional observations from a re-analysis of the deposited data

How the results depend on the processing

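The calls of IHH, PTCH1 and GLI1 against day 6 held under every alternative run. With all other settings as reported, limma voom called 2 of the 9 genes at day 19 against day 16, where 0 were called as reported, and 7 among the 3 days, where 4 were called. Of all genes, voom called 45.7% and 66% in these comparisons, against 1.2% and 19.6% as reported. Leaving out 1 library gave 0 to 2 and 4 to 7 of the 9 genes, the higher value without day 19 replicate 1. Without that library 44.7% and 59.1% of all genes were called. The pathway lists other than ligand making and release held 7, 31, 43, 24, 24 and 17 tested genes. Of the genes in these lists, 20 were called at day 16 against day 6 as reported. These were 32 by DESeq2, 45 by voom and 41 with only the libraries of those days. With 1 library left out they were 12 to 40. The shares of all genes were 8.86% as reported, 14.1%, 23.7% and 19.8% in those fits, and 4.05% to 20.4% with 1 library left out. At day 19 against day 16 the list genes called were 3 as reported, 17 by DESeq2 and 63 by voom. They were 0 with only those days, 0 with a replicate block and 0 to 60 with 1 library left out. The shares of all genes were 1.2%, 10.9%, 45.7%, 0%, 0% and 0% to 44.7%. At day 19 against day 6 the list genes called were 47 as reported, 94 by voom and 29 to 87 with 1 library left out. The shares of all genes were 22.9%, 58.6% and 11.8% to 54.2%. The cause was not tested.

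Among the named genes, signs turned only for values that were not called. The log2 fold change of IHH for day 19 over day 16 was 0.0821 by voom and -0.49 to 0.11 with 1 library left out. That of HAND2 for day 16 over day 6 was 0.0189 by voom and -0.39 to 0.22 with 1 library left out, and for day 19 over day 6 it was -0.0448 with upper quartile scaling and -0.23 to 0.38 with 1 library left out. With 1 library left out it was -0.0635 to 0.43 for HAND2 and -0.0706 to 0.24 for SMO (day 19 over day 16), -0.31 to 0.0039 for SMO (day 19 over day 6) and -0.44 to 0.0277 for GLI3 (day 16 over day 6). GLI2 at day 16 was called with only the libraries of days 16 and 6 (adjusted p = 0.0089) and by voom (0.00969). NR2F2 at day 19 against day 6 lost its call with upper quartile scaling (adjusted p = 0.0632), no low-count filter (0.0736), a replicate block (0.0883) and only those days (0.103).

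Replicate numbers did not pair the libraries: the deviations of same-numbered libraries correlated at -0.164 to 0.153. With a replicate block 4, 0 and 5 of the 9 genes were called for day 16 over day 6, day 19 over day 16 and day 19 over day 6, and 6.83%, 0% and 18% of all genes. The results for list genes, the second prior count of 0.5 for relative levels and their left-out libraries were alternatives chosen after seeing the data. Low counts limit HHIP, FOXL1, FGF2, FGF18 and GLI3 in day 19 replicates 2 and 3, where SD and SE, not counting error, are given.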
